A study of Homo sapiens with 24 samples.

Results

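Aminoacyl-tRNA synthetases were followed here through all treatments of HepG2 cells, with the question of whether interferon gamma (IFNg) raised the tryptophan enzyme WARS alone. The 39 genes were taken by symbol from the 26475 symbols in the count files, in the older spelling those files use (WARS for WARS1, for example). They comprise 20 cytosolic synthetases, 16 mitochondrial synthetases and 3 scaffold proteins (AIMP1, AIMP2 and EEF1E1). All 39 were in the files and all 39 passed the filter on low counts in each of the 15 comparisons. The mitochondrial synthetases on the list are not a complete set.

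Aminoacyl-tRNA synthetases join each amino acid to its tRNA and so supply the ribosome with charged tRNA. Several cytosolic synthetases are held with the 3 scaffold proteins in a multisynthetase complex. The 16 genes counted here as mitochondrial, whose symbols end in a 2, are nuclear genes separate from the cytosolic ones. Not every mitochondrial enzyme has such a gene: KARS, counted here as cytosolic, serves both cytosol and mitochondria. Many cytosolic synthetase genes are known targets of ATF4, the transcription factor of the amino acid response. WARS is counted among these targets here, and it is also a classical target of IFNg, a cytokine of the immune response.

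HepG2, an established cell line from a hepatocellular carcinoma, was sequenced in 24 libraries, in 8 groups of 3. One group received the vehicle DMSO and another IFNg. A further 3 received an inhibitor, either 50 nM ABBV-075 or 1 of 2 doses of ABBV-744 (50 nM and 500 nM), and the last 3 received IFNg with each of those inhibitor treatments. ABBV-075 inhibits the bromodomains of the BET proteins, which read acetylated chromatin, and ABBV-744 is selective for the second bromodomain. The labels give neither a treatment time nor the dose of IFNg, and the methods give a time for ABBV-075 but not for ABBV-744 or IFNg. That time is shorter than the one the methods write for the groups listed with DMSO. Whether the DMSO and ABBV-075 libraries were matched in time is not known. All libraries came from 1 cell line, so the p-values measure the spread between triplicates of that line.

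The libraries held 2978982 to 4304103 counts on genes, a small part of the reads, since between 56.0% and 69.4% of reads aligned to several places. The 39 genes held 8117 to 14842 counts per library, or 0.234% to 0.395% of the counts on genes. Hepatocyte markers were high (ALB at 3056 ± 335 CPM in DMSO, SD, n = 3). Of 10 markers of other cell types only LYZ and CD68 passed the filter in any comparison, and neither was called for IFNg against DMSO. CD68 was lower with ABBV-075 (log2 fold change -0.81 against DMSO) and with each inhibitor under IFNg (-1.11, -1.27 and -1.18 against IFNg). CD68 was also lower in IFNg + ABBV-744 than in ABBV-744 without IFNg (-0.82 at 50 nM and -0.76 at 500 nM). LYZ was lower with ABBV-075 (-0.54 against DMSO and -0.54 under IFNg), was not called with ABBV-744 under IFNg (0.12 at 50 nM and -0.13 at 500 nM against IFNg), and was higher in IFNg + ABBV-744 50 nM than in ABBV-744 50 nM (0.25). The part of these markers in the results was not tested. CPM is the count scaled to a common library size with TMM factors over all libraries. A gene was called when its adjusted p was at most 0.05 (the quasi-likelihood test of edgeR, Benjamini-Hochberg over all genes tested), and each adjusted p below comes from that test unless another tool is named.

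WARS lies on chromosome 14 (GRCh38, 100333790 to 100376805, minus strand; named WARS1 in GENCODE). It has 2 RefSeq promoter windows, and the 250 bases before each start are shown because the known IFNg response elements can be looked for in them. The windows were searched on both strands for TTCNNNGAA, the letters of a gamma-activated site, for GAAANNGAA, the core of an interferon-stimulated response element, and for TGATGNAA, the core of the C/EBP-ATF response element that ATF4 uses. Capitals mark the matches.
WARS window 1, chr14:100376328-100376577, minus strand: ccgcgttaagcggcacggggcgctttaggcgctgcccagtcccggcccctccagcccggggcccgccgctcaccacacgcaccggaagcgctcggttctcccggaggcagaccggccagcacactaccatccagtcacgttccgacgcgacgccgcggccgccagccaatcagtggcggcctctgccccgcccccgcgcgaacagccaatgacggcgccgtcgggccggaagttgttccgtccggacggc
WARS window 2, chr14:100375348-100375597, minus strand: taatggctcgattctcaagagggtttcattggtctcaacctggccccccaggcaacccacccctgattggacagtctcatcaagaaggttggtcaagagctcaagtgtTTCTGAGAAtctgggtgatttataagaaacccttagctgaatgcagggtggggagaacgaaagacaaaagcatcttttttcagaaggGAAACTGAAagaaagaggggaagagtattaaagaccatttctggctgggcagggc

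Window 2 holds TTCTGAGAA from position -142 and GAAACTGAA from position -55, counted from the transcript start, and the matches do not overlap; window 1 holds none of the 3 motifs. The other members were searched in the same 300-base windows (250 bases before and 50 after the start), of which RefSeq gave 45 for 33 of the 39 genes. TTCNNNGAA was in 7.66% of all 35116 windows and in 15.6% of the members' windows, in 5 genes (CARS, PARS2, TARS, WARS and WARS2). GAAANNGAA was in 8.11% of all windows and in 15.6% of the members' windows, in 6 genes (AIMP1, EARS2, EEF1E1, GARS, IARS and WARS). Of the 33 genes WARS was the only member in both sets. TGATGNAA was in 3.62% of all windows and in 17.8% of the members' windows, in 8 genes (AARS, CARS, GARS, IARS, MARS, NARS, TARS and YARS2), of which WARS was not one. A match is a run of letters and not a measured binding site.

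IFNg raised WARS more than any other member, by 21.5-fold. The CPM of WARS was 45.6, 50.4 and 57.5 in the DMSO libraries and 1043, 1183 and 1087 in the IFNg libraries. The groups were far apart, with a log2 fold change of 4.43 (SE 0.0877, adjusted p = 1.03e-31). Its exact permutation p on log2 CPM was 0.1, the smallest that 3 against 3 can give. WARS ranked 16th of 11217 genes by log2 fold change.

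**Figure D1:**
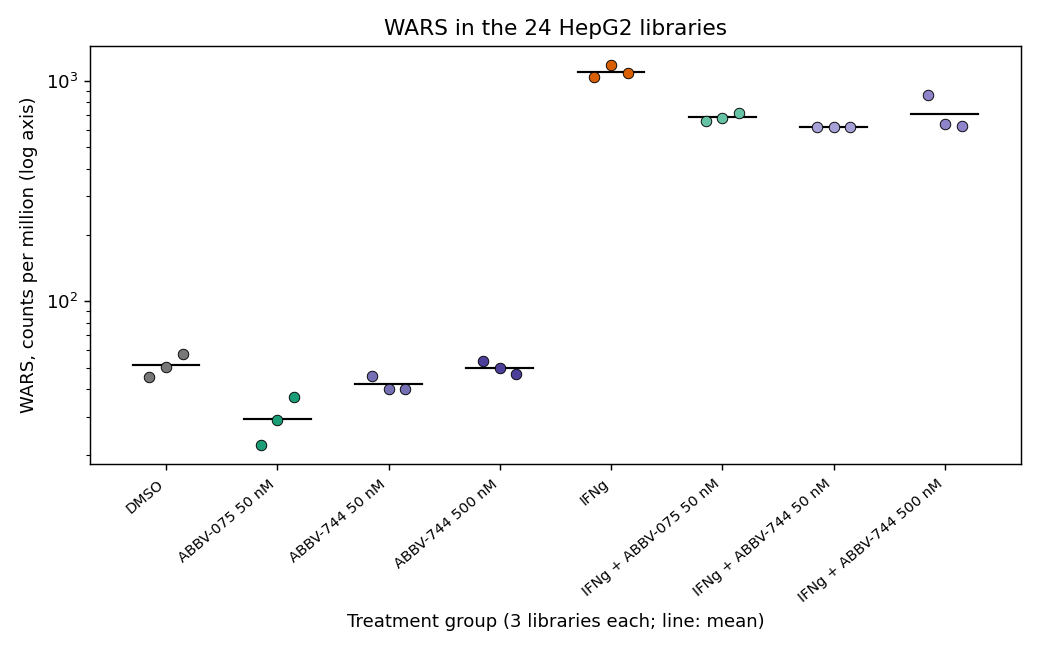
CPM of WARS (log axis) in each of the 24 libraries by treatment group, with a line at the mean of 3. The 12 libraries without IFNg lie between 22.2 and 57.5, and the 12 with IFNg between 618 and 1183.

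Beside WARS, IFNg raised KARS and RARS, both by less than 1.5-fold. KARS, the lysine enzyme, which serves cytosol and mitochondria and is held in the multisynthetase complex, was 39.7, 38.9 and 36.0 CPM in DMSO and 51.8, 54.3 and 54.0 CPM with IFNg (log2 fold change 0.48, SE 0.115, adjusted p = 0.00752). RARS, the arginine enzyme of the same complex, was 110, 121 and 127 CPM in DMSO and 150, 154 and 145 CPM with IFNg (0.32, SE 0.0859, adjusted p = 0.0227). The libraries of the 2 groups did not overlap for either gene, but only WARS also exceeded the study's threshold of 1.5 on the log2 scale. With DESeq2 WARS was the only member called, and KARS and RARS had an adjusted p of 0.0508. The GC correction described below kept all 3 calls, with KARS at 0.48 (adjusted p = 0.00145) and RARS at 0.40 (adjusted p = 0.000112). The KARS call was lost without DMSO replicate 3 (0.44, adjusted p = 0.0795). The RARS call was lost without DMSO replicate 1 (0.27, adjusted p = 0.136), DMSO replicate 2 (0.33, adjusted p = 0.081) or IFNg replicate 2 (0.30, adjusted p = 0.134), and also with the replicate block (adjusted p = 0.08), all 24 libraries in the fit (adjusted p = 0.235) or library size only (adjusted p = 0.0978). No member was called lower, but with library size only as the scaling 2 members were called higher and 1 lower. Thus 3 of 39 were called higher, against 2.76% of all genes tested called higher and 0.695% called lower, and 6 of 39 had an unadjusted p under 0.05.

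The other 36 members had log2 fold changes from -0.35 for AIMP1 to 0.34 for FARS2. The median over the 39 members was -0.02, beside a median of -0.00235 over all genes. None of the 16 mitochondrial synthetases was called with IFNg, WARS2, the mitochondrial tryptophan enzyme, among them (17.8 ± 2.80 CPM in DMSO and 17.8 ± 1.44 CPM with IFNg, SD, n = 3). Of the 13 synthetases known as ATF4 targets WARS alone was called. The 30 amino acid response genes gave 1 call of the 27 tested (CEBPB), and ATF4 itself was 419 ± 32.0 CPM in DMSO and 418 ± 11.3 CPM with IFNg (SD, n = 3). None of 9 tested genes of tryptophan transport and breakdown was called. IDO1, the tryptophan-degrading enzyme that IFNg induces in many cells, had no count in DMSO and at most 1 count in an IFNg library, so a change in it was not detectable at this depth. By contrast, 13 of 14 tested IFNg marker genes rose, with a median log2 fold change of 3.15.

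**Figure D2:**
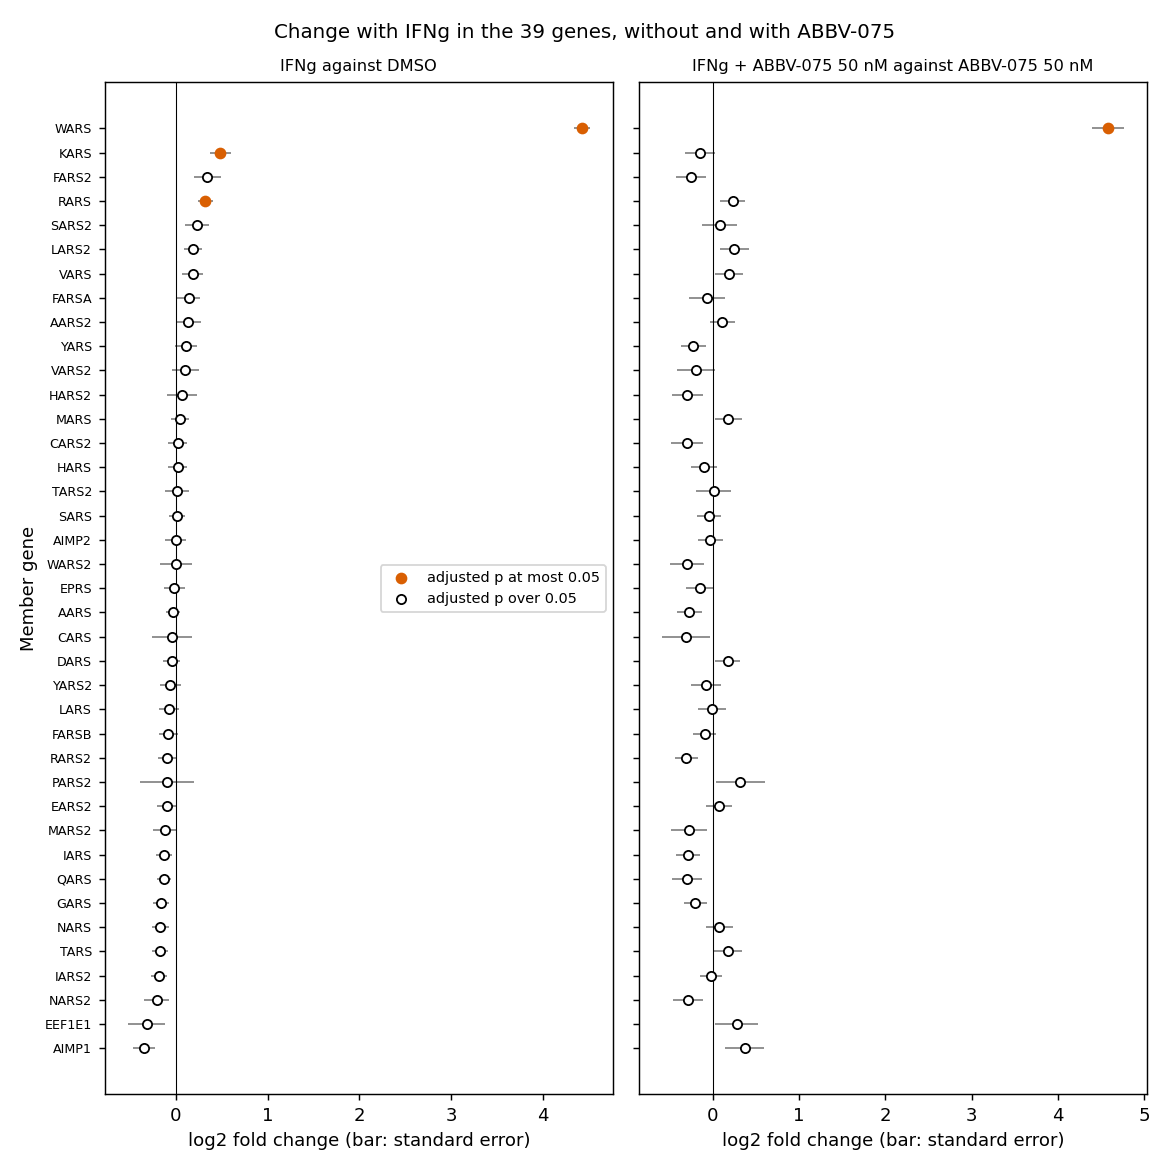
log2 fold change of the 39 genes with IFNg, without an inhibitor (left) and under ABBV-075 (right), with bars for the standard error and filled points for an adjusted p of at most 0.05. WARS stands alone above 3.8 in both panels, and KARS and RARS are the other filled points, on the left only.

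WARS thereby moved from the middle to the top of the family. Per kilobase of transcript, the highest members in DMSO were QARS (93.1 ± 7.20 CPM per kb), AARS (62.1 ± 2.67) and SARS (61.2 ± 5.98), the enzymes for glutamine, alanine and serine. WARS was 20th of 39 at 19.4 ± 2.27 CPM per kb, and its neighbours YARS (20.6 ± 2.16) and KARS (19.2 ± 0.965) did not differ from it beyond the spread of 3 libraries. PARS2, the mitochondrial proline enzyme, was lowest at 2.67. With IFNg, WARS was first at 418.5 ± 27.2 CPM per kb and QARS next at 85.1 ± 3.62. WARS held 1.74% ± 0.168 of the counts of the 39 genes in DMSO and 28.1% ± 1.44 with IFNg, while the other 38 genes summed to 2889 ± 55.8 and 2830 ± 72.8 CPM (SD, n = 3).

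The inhibitors left the rise of WARS with IFNg in place at a lower level. Under ABBV-075, WARS went from 22.2, 29.0 and 36.7 CPM without IFNg to 656, 679 and 717 CPM with it (log2 fold change 4.58, SE 0.186, adjusted p = 9.37e-09). It was the only member called in that comparison, where 1.01% of all genes were called higher and 0.0365% lower, and it remained the only call in every alternative tried. Under ABBV-744 at 50 nM, WARS went from 45.9, 39.9 and 40.02 CPM to 618, 621 and 621 CPM (3.89, SE 0.104, adjusted p = 6.32e-15). At 500 nM it went from 53.8, 49.7 and 46.6 CPM to 863, 636 and 625 CPM (3.81, SE 0.129, adjusted p = 4.35e-15). In all 4 settings the libraries with and without IFNg were far apart.

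Compared with IFNg alone, WARS was lower with each inhibitor added, by 1.62-fold with ABBV-075 (log2 fold change -0.70, SE 0.0791, adjusted p = 1.49e-09), 1.76-fold with ABBV-744 at 50 nM (-0.81, SE 0.0714, adjusted p = 3.02e-11) and 1.58-fold with ABBV-744 at 500 nM (-0.66, SE 0.0952, adjusted p = 1.07e-06). No library of these 3 groups reached the lowest IFNg library. After a correction for the GC content of transcripts, described below, the changes were smaller, at -0.43, -0.56 and -0.39, and all 3 were called. At 500 nM, replicate 1 (863 CPM) stood apart from the other 2, and without it the change was -0.81. Without IFNg, WARS was 1.78-fold lower with ABBV-075 than in DMSO (-0.83, SE 0.186, adjusted p = 0.00404), with no overlap of libraries. The changes with ABBV-744 alone were -0.27 at 50 nM (95% interval -0.54 to -0.01, adjusted p = 0.134) and -0.03 at 500 nM (-0.28 to 0.23, adjusted p = 0.91), and neither was called. After the GC correction the 50 nM change was -0.40 (adjusted p = 0.0263).

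The interaction test asks whether an inhibitor changed WARS differently with IFNg than without. For ABBV-075 the difference was 0.12 (95% interval -0.27 to 0.51, adjusted p = 0.915). For ABBV-744 it was -0.57 at 50 nM (SE 0.135, adjusted p = 0.00092) and -0.61 at 500 nM (SE 0.162, adjusted p = 0.0043). Neither ABBV-744 value was called after the GC correction (-0.16, adjusted p = 0.416, and -0.28, adjusted p = 0.237). At the matched dose of 50 nM, WARS was lower with ABBV-075 than with ABBV-744 (-0.54, SE 0.19, adjusted p = 0.0435), a call lost with DESeq2 (-0.50, adjusted p = 0.0954), RLE normalisation (-0.51, adjusted p = 0.0529), library size only (-0.47, adjusted p = 0.0747), the GC correction (-0.30, adjusted p = 0.14) or when any of 5 libraries was left out (adjusted p = 0.146 and 0.124 without ABBV-075 replicate 1 or 2, and 0.13, 0.08 and 0.0915 without ABBV-744 replicate 1, 2 or 3). With IFNg the difference was 0.19 (95% interval 0.03 to 0.35, adjusted p = 0.0545), which was called with DESeq2 (adjusted p = 0.0323), with the replicate block (adjusted p = 0.0262), with the block and the GC correction (adjusted p = 0.0451) and without IFNg + ABBV-075 replicate 1 (adjusted p = 0.00424).

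The genes whose pattern was most like that of WARS were immune genes and no synthetase. By Pearson's r over the 8 group means of log2 CPM, among 9385 genes, they were PSMB9 (r = 0.997) and TAP1 (0.996) of antigen processing, IFI35 (0.994), RNF213 (0.994) and NLRC5 (0.992), the activator of MHC class I genes. The most similar member was RARS, in place 224 with r = 0.73. The points share the same libraries and the large step with IFNg.

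GC content of the transcript moved with the changes of the other members, most in the comparisons with ABBV-744. In the 38 members without WARS, r between the log2 fold change and GC content was 0.73 for ABBV-744 at 50 nM against DMSO, -0.79 for IFNg + ABBV-744 at 50 nM against IFNg and -0.86 for the 50 nM interaction. Over all genes with a GC value the same r were 0.54, -0.64 and -0.73. For IFNg + ABBV-075 against ABBV-075 it was -0.067 in the members, and for IFNg against DMSO it was 0.51, over changes that were small. The points share their libraries and their base composition, and the part of GC content in the results below was not tested. GC-corrected values, with a trend over all genes removed from each library, are given below beside the counts and some of the genes named, and in the members those r then lay at 0.075, -0.094 and -0.14. The shares of all genes given below come from the uncorrected fits. Corrected counts of members have no such share beside them, so they cannot be set against all genes.

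**Figure D3:**
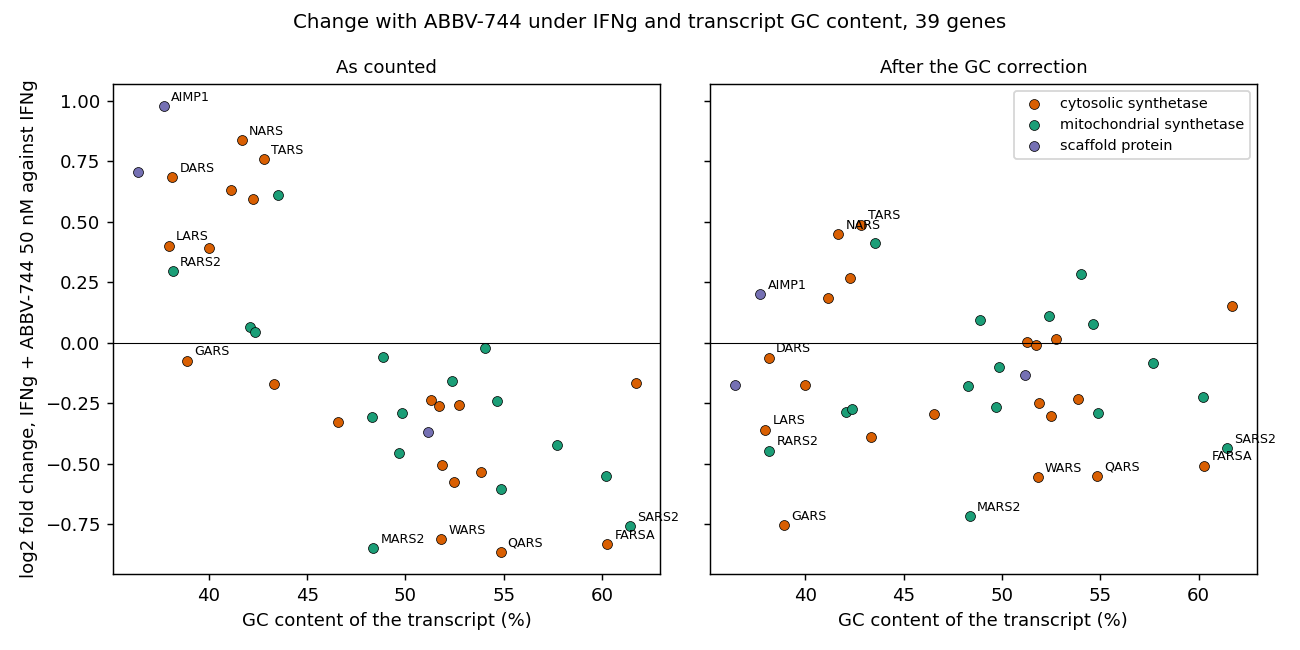
log2 fold change of the 39 genes between IFNg + ABBV-744 50 nM and IFNg against the GC content of the transcript (%), as counted (left) and after the GC correction (right), coloured by class. On the left the members of up to 43.5% GC lie above 0 apart from GARS and IARS, and those from 46.6% lie below it. On the right GARS, MARS2, WARS, QARS and FARSA lie below -0.5.

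ABBV-075 lowered more members than it raised. Against DMSO, 13 of 39 members were called lower and 1 higher, where 19.6% of all genes were called lower and 19.8% higher, and the members' median was -0.17 beside 0.03 over all genes. The largest decreases were in LARS2, the mitochondrial leucine enzyme, which fell from 81.2, 79.0 and 69.4 CPM to 36.0, 43.4 and 42.7 CPM (log2 fold change -0.94, SE 0.14, adjusted p = 0.000355), and in WARS. YARS2, the mitochondrial tyrosine enzyme, fell by 0.75 on the log2 scale (adjusted p = 0.0016), MARS, the methionine enzyme, by 0.73 (adjusted p = 0.00152) and FARSA, a subunit of the phenylalanine enzyme, by 0.67 (adjusted p = 0.0211). AIMP1, the scaffold protein, fell by 0.61 (adjusted p = 0.0378) from 46.4, 47.5 and 49.4 CPM to 43.2, 31.6 and 19.9 CPM. AIMP1 was at -1.03 after the GC correction (adjusted p = 1.16e-05), at -0.90 without ABBV-075 replicate 1 and at -0.37 without replicate 3, and its call was lost without DMSO replicate 1, 2 or 3, without ABBV-075 replicate 2 (highest adjusted p = 0.12) or with library size only. RARS was higher, at 191, 150 and 135 CPM (0.39, adjusted p = 0.0377), and was not called after the GC correction (0.17, adjusted p = 0.123) or without any of 5 libraries (all but ABBV-075 replicate 3). The RARS call was also lost with library size only (adjusted p = 0.0628) or the replicate block (adjusted p = 0.0734). FARSA was not called without DMSO replicate 1 (adjusted p = 0.0999), DMSO replicate 3 (adjusted p = 0.0769) or ABBV-075 replicate 2 (adjusted p = 0.0709). No mitochondrial synthetase rose, and 5 of 16 fell.

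The number of these calls moved when single libraries were left out. It was 5, 8 and 6 without DMSO replicate 1, 2 or 3, and 9, 5 and 20 without ABBV-075 replicate 1, 2 or 3, against 14 with all libraries. The GC-corrected fit called 17 lower and none higher, 12 of them among the 14. It added LARS (-0.65), EEF1E1 (-0.59), DARS (-0.39), RARS2 (-0.38) and NARS2 (-0.38), and no longer called VARS and RARS. Of the genes called lower as counted, all but MARS2 and SARS2 had every ABBV-075 library below every DMSO library. They were picked by their call in these same libraries, so the separation is no further test. The share over all genes is not given. Of 26 tested amino acid response genes 11 (42.3%) were called lower and 1 higher, where 19.6% of all genes were lower and 19.8% higher. ATF4 itself was lower by 0.31 on the log2 scale (adjusted p = 0.0389). Of the 13 synthetases known as ATF4 targets 5 (38.5%) were lower (GARS, IARS, MARS, VARS and WARS). Of the 7 other cytosolic synthetases 2 (28.6%) were lower and 1 higher. The part of ATF4 in these decreases was not tested.

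With IFNg present, ABBV-075 lowered 17 members and raised 3, where 28.4% of all genes were lower and 28.2% higher, and the members' median was -0.27. KARS, which had risen with IFNg, went from 51.8, 54.3 and 54.0 CPM to 28.6, 25.3 and 30.1 CPM (log2 fold change -0.94, SE 0.134, adjusted p = 2.01e-07), below all 3 DMSO libraries. LARS2 (-0.89), FARSA (-0.88), CARS2 (-0.79) and YARS2 (-0.78) followed. TARS (0.49, adjusted p = 6.37e-05), IARS2 (0.31) and RARS (0.28) were higher, and RARS was at -0.01 after the GC correction. The GC-corrected fit called 23 members lower and 3 higher. No member was called by the interaction of ABBV-075 and IFNg in edgeR, where 0.0173% of all genes were called in each direction, 3 members had an unadjusted p under 0.05, and no member was called with DESeq2.

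**Figure D4:**
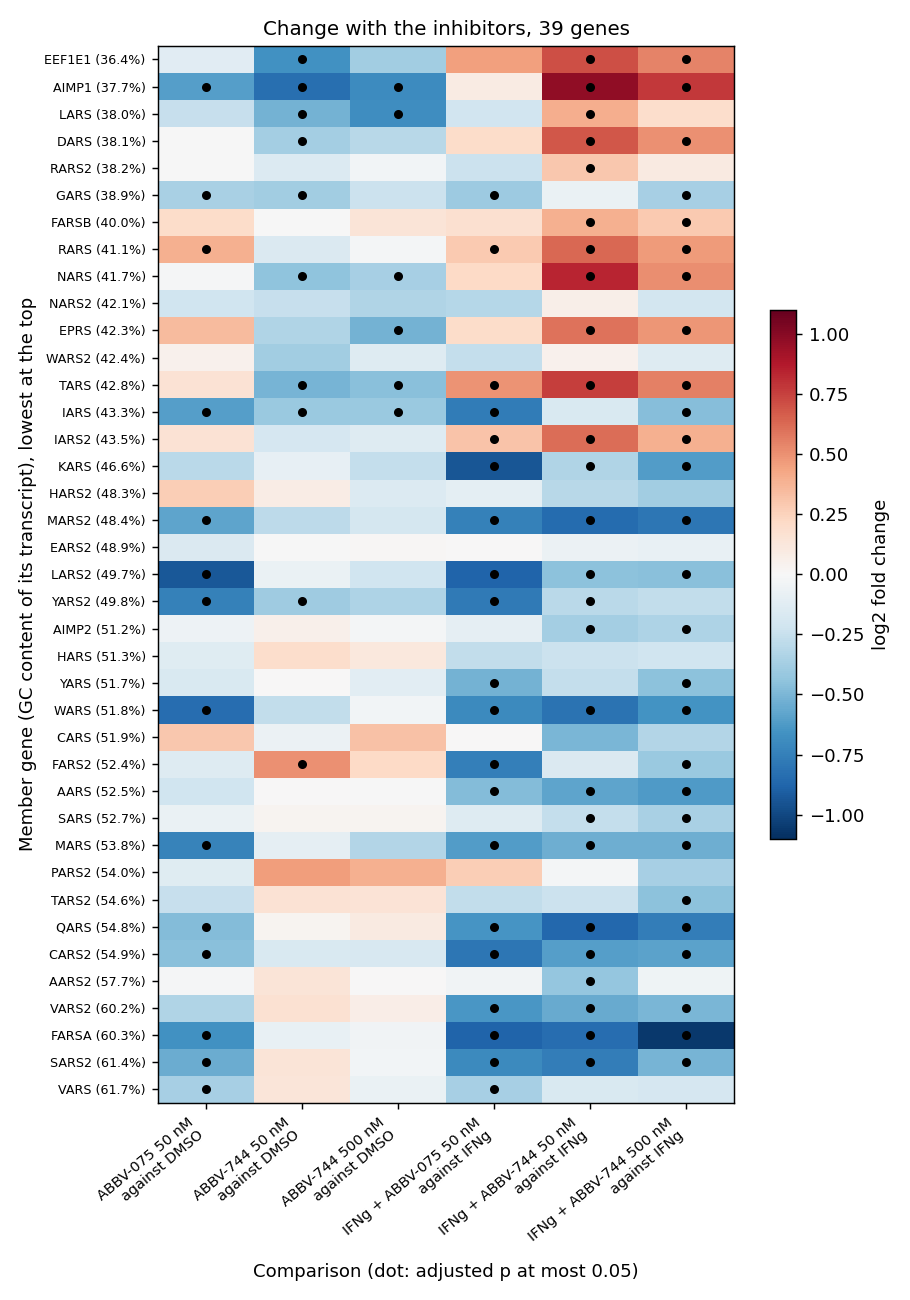
log2 fold change (colour) of the 39 genes in the 6 comparisons of an inhibitor with its control, ordered by GC content of the transcript from the lowest at the top, with a dot for an adjusted p of at most 0.05. The ABBV-744 columns without IFNg are blue at the top, those with IFNg are red at the top and blue below, and the ABBV-075 columns are blue at LARS2, KARS, MARS2, YARS2 and FARSA.

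ABBV-744 alone changed fewer members, mostly downward. At 50 nM, 9 of 39 were called lower and 1 higher, where 10.1% of all genes were lower and 8.81% higher. At 500 nM, 6 were lower and none higher, where 7.8% were lower and 7.48% higher. AIMP1 fell at both doses, to 32.5, 22.3 and 24.8 CPM at 50 nM (log2 fold change -0.83, SE 0.144, adjusted p = 0.000333) and to 32.0, 29.8 and 26.8 CPM at 500 nM (-0.69, SE 0.133, adjusted p = 0.000523), below every DMSO library. LARS (-0.52 and -0.68), TARS (-0.51 and -0.46), NARS (-0.44 and -0.37) and IARS (-0.41 and -0.40), the cytosolic enzymes for leucine, threonine, asparagine and isoleucine, were also lower at both doses. At 50 nM the GC correction moved LARS to -0.20 (adjusted p = 0.218) and NARS to -0.24 (adjusted p = 0.1), and neither was then called. The 50 nM call of LARS was also lost without DMSO replicate 3 (adjusted p = 0.0515). That of NARS was lost without DMSO replicate 2 (adjusted p = 0.125), DMSO replicate 3 (adjusted p = 0.0697) or ABBV-744 replicate 2 (-0.24, adjusted p = 0.0611), and with library size only (adjusted p = 0.0518). AIMP1, TARS and IARS were called at both doses after the GC correction too, which left 6 called lower and none higher at 50 nM and 10 lower and 1 higher at 500 nM. FARS2, the mitochondrial phenylalanine enzyme, was the member called higher at 50 nM (0.50, adjusted p = 0.0283). It was not called after the correction (0.37, adjusted p = 0.0994), with DESeq2 (0.49, adjusted p = 0.0836) or with library size only (adjusted p = 0.109). Its call was also lost without DMSO replicate 2 (adjusted p = 0.197) or ABBV-744 replicate 3 (adjusted p = 0.132). The 50 nM count fell to 4 without DMSO replicate 2 or 3 and to 6 without ABBV-744 replicate 3.

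With IFNg present, ABBV-744 raised some members and lowered others, and the share raised was near that of all genes. At 50 nM, 11 members (28.2%) were higher and 15 (38.5%) lower than with IFNg alone, where 27.4% of all genes were higher and 24.3% lower, and at 500 nM 9 (23.1%) were higher and 18 (46.2%) lower, where 22.9% were higher and 22.8% lower. AIMP1 rose from 38.7, 41.3 and 32.7 CPM to 81.5, 68.9 and 68.2 CPM at 50 nM (log2 fold change 0.98, SE 0.12, adjusted p = 2.94e-08), the highest member by change. NARS (0.84), TARS (0.76), DARS (0.68) and RARS (0.63) followed. QARS, the glutamine enzyme and the highest member per length in DMSO, went from 212, 215 and 198 CPM to 102, 116 and 122 CPM (-0.87, SE 0.0893, adjusted p = 9.24e-10), with MARS2 (-0.85), FARSA (-0.83), WARS (-0.81) and SARS2 (-0.76) next. As counted at 50 nM, 6 of the 11 multisynthetase complex genes were higher (DARS, EPRS, LARS, RARS, AIMP1 and EEF1E1). The 4 lower were KARS, MARS, QARS and AIMP2. The 6 higher genes had a GC content of 36.4% (EEF1E1) to 42.3% (EPRS), and the 4 lower of 46.6% (KARS) to 54.8% (QARS). Over all genes with a GC value, r between the change and GC content was -0.64 in this comparison. Whether the split belongs to the complex apart from GC content was not tested.

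The GC correction changed many of these calls. At 50 nM it called 4 members higher and 13 lower, of which 15 were among the 26 called before. NARS (0.45, adjusted p = 1.34e-05), TARS (0.49, adjusted p = 3.3e-06), QARS (-0.55, adjusted p = 1.98e-06), MARS2 (-0.72, adjusted p = 0.000175) and WARS (-0.56, adjusted p = 1.86e-08) were called both ways. AIMP1 was not (0.20, adjusted p = 0.149), DARS was at -0.06, and RARS2 and LARS turned from 0.29 and 0.40 to -0.45 (adjusted p = 0.000255) and -0.36 (adjusted p = 0.00486). GARS, the glycine enzyme, had the largest corrected decrease at 500 nM (-0.90, adjusted p = 1.4e-09, against -0.37 as counted). For AIMP1, 23.2% of the reads at the gene lay on the other strand, and with both strands counted together its change at 50 nM was 1.00 (adjusted p = 1.39e-08).

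**Figure D5:**
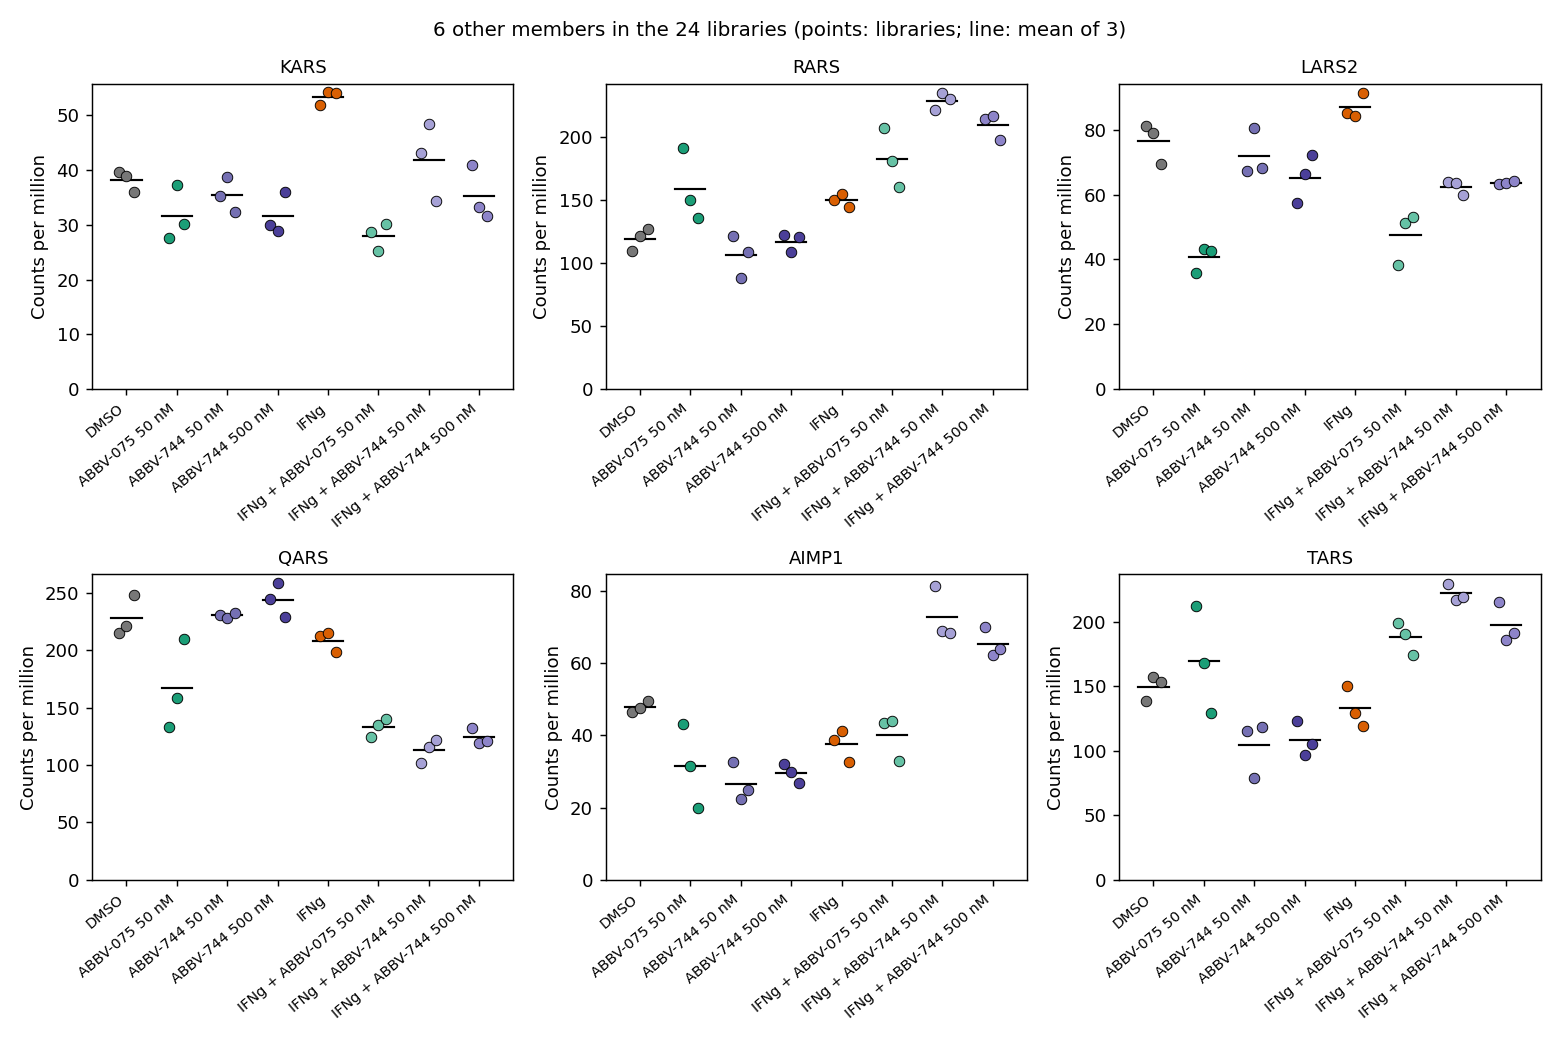
CPM of KARS, RARS, LARS2, QARS, AIMP1 and TARS in the 24 libraries by treatment group, with a line at the mean of 3. KARS is highest with IFNg alone, LARS2 lowest in the 2 groups with ABBV-075, QARS lowest and AIMP1 and TARS highest in the 2 groups with IFNg and ABBV-744.

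Under ABBV-744, members besides WARS were called with IFNg, at shares near those of all genes at 50 nM. There IFNg + ABBV-744 against ABBV-744 gave 12 members (30.8%) higher and 14 (35.9%) lower, where 30.4% of all genes were higher and 29.8% lower, and at 500 nM 10 (25.6%) higher and 11 (28.2%) lower, where 22.6% were higher and 18.3% lower. WARS was still set apart by size, at 3.89 and 3.81 on the log2 scale, with AIMP1 next at 1.46 and 1.14. QARS had the largest decrease at both doses (-1.02 and -0.98). The GC-corrected fits called 8 higher and 7 lower at 50 nM and 9 higher and 8 lower at 500 nM, of which 12 and 11 had been called as counted.

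The interaction tests called 10 members higher and 14 lower for ABBV-744 at 50 nM, where 25.0% of all genes were higher and 26.5% lower. At 500 nM they called 9 higher and 8 lower, where 18.5% were higher and 15.0% lower. At both doses DARS, EPRS, LARS, NARS, RARS, TARS, IARS2, AIMP1 and EEF1E1 were higher and WARS, AARS, FARSA, QARS, FARS2 and MARS2 lower. After the GC correction 4 were higher and 4 lower at 50 nM, and 5 and 5 at 500 nM. TARS (0.85, adjusted p = 1.51e-06 at 50 nM), NARS (0.70, adjusted p = 7.97e-05), AIMP1 (0.71, adjusted p = 0.00101), IARS2 (0.47, adjusted p = 0.00289) and QARS (-0.41, adjusted p = 0.00876) were called at 50 nM with and without the correction.

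ABBV-075 and ABBV-744 were compared with each other at 50 nM, with and without IFNg, which made 2 comparisons. Whether the treatment times matched is not known. Without IFNg, 3 members were higher with ABBV-075 (EPRS, RARS and TARS) and 8 lower, where 21.4% of all genes were higher and 19.4% lower. LARS2 differed most (log2 fold change -0.84, 95% interval -1.16 to -0.51, adjusted p = 0.00266, and -0.66 after the GC correction, adjusted p = 0.000773). The GC-corrected fit called 11 members as well, of which 3 were the same genes. This count was 6, 3 and 19 without ABBV-075 replicate 1, 2 or 3, and 3 and 4 without ABBV-744 replicate 2 or 3, against 11 with all libraries. With IFNg, 3 were higher with ABBV-075 (QARS, AARS2 and AIMP2) and 14 lower, where 16.7% of all genes were higher and 17.0% lower. AIMP1 differed most, at 43.5, 44.1 and 32.9 CPM with ABBV-075 and 81.5, 68.9 and 68.2 CPM with ABBV-744 (-0.81, SE 0.119, adjusted p = 5.63e-07, and -0.68 after the GC correction, adjusted p = 3.77e-07). NARS (-0.54), KARS (-0.54), LARS (-0.53) and IARS (-0.53) were lower with ABBV-075 as well, and were so after the correction. The count was 9 without IFNg + ABBV-075 replicate 2 and 9 without IFNg + ABBV-744 replicate 1.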

How the data were processed

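The authors depleted ribosomal RNA, made strand-specific libraries, trimmed reads with Trimmomatic 0.33 and aligned them to hg38 with STAR 2.7.1, per the labels and the study's methods. What they deposited are unnormalized counts, 1 value per gene symbol and strand setting. Column 4, the reads on the gene's strand, was used. Rows for unmapped, multimapping, unassigned and ambiguous reads were left out of library sizes and tests. The annotation used for counting is not given in the sources used here. Uniquely aligned reads are counted, so near-identical copies lose counts.

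Each comparison was fitted on the libraries of its groups with edgeR 4.0.16 (filterByExpr, TMM, quasi-likelihood test), with Benjamini-Hochberg adjustment over all genes tested and a threshold of 0.05. The study's cutoff adds a log2 fold change of 1.5. The interaction is the inhibitor's effect with IFNg minus that without. log2 CPM used a prior count of 2. Position, transcript length and GC content came from GENCODE, and promoter windows from RefSeq (GRCh38.p14). Of 26475 symbols, 23161 matched by symbol and 1371 by an older name. The GC correction removed from each library a lowess trend (span 0.3) of log2 CPM on GC content.

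The alternatives were DESeq2 1.42.0, RLE, library size only, no filter, a minimum of 10 counts in each library, 1 fit of all 24 libraries, the replicate number as a block, both strands, the GC correction with and without the block, and leaving out each library. Counts were simulated for 11093 genes of IFNg against DMSO. Of 99 genes changed by 1 on the log2 scale 83.8% were recovered, and of 97 changed by 2, 100.0%. For the ABBV-075 interaction, with 11355 genes run, these were 47.5% and 89.9%, each of 99 changed genes. The simulation gave every gene the same dispersion and held no GC trend, so recovery in the real libraries may differ. WARS and the other members with values per library, at most 5 in each direction per comparison against DMSO or IFNg among called genes with groups apart, followed a fixed rule. The members and gene lists were chosen with earlier results of these data known.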

Additional observations from a re-analysis of the deposited data

Results flagged for a closer look

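The interaction with IFNg was called for 24 members with ABBV-744 at 50 nM and for 17 at 500 nM, as the test of the difference between the inhibitor's effect with and without IFNg. At 50 nM 25.6% of members were higher and 35.9% lower, where 25.0% of all genes were higher and 26.5% lower. At 500 nM these were 23.1% and 20.5% of members, and 18.5% and 15.0% of all genes. After the GC correction 8 and 10 members were called, of which 6 and 7 were among those called as counted. At 50 nM the log2 difference was above 0 for AIMP1 (1.78), EEF1E1 (1.34), NARS (1.25), TARS (1.24), DARS (1.03), EPRS (0.89), LARS (0.89), IARS2 (0.77), RARS (0.76) and RARS2 (0.42). It was below 0 for SARS2 (-0.93), QARS (-0.92), FARSA (-0.78), VARS2 (-0.75), FARS2 (-0.69), AARS (-0.61), AARS2 (-0.60), MARS2 (-0.59), WARS (-0.57), CARS2 (-0.47), MARS (-0.46), HARS (-0.46), AIMP2 (-0.46) and LARS2 (-0.41). With the correction RARS2 was called in the opposite direction (-0.61, adjusted p = 0.00103), and CARS2, MARS and LARS changed sign without being called.

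At 500 nM the difference was above 0 for AIMP1 (1.49), TARS (1.04), EPRS (1.02), EEF1E1 (0.95), NARS (0.90), LARS (0.90), DARS (0.83), IARS2 (0.56) and RARS (0.51). It was below 0 for FARSA (-1.001), QARS (-0.84), WARS (-0.61), FARS2 (-0.60), AARS (-0.60), MARS2 (-0.58), TARS2 (-0.58) and SARS (-0.36). GC content moved with these differences (r = -0.86 at 50 nM and -0.76 at 500 nM over the 38 members without WARS), and its part in them was not tested.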

How the results depend on the processing

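The alternatives kept 466 of the values that answer a comparison on their side of the threshold or within 1.5 times the count. Of the rest 31 moved, 14 were weaker and 5 stronger. Among the other values, almost all for single named members, 1732 were kept, 295 were weaker and 16 reversed. Of these the GC correction without the block kept 63, with 42 weaker and 8 reversed. The exceptions among the values that answer a comparison and the reversed signs follow, and the cause was not tested. With the GC correction, and with it and the replicate block, the members called were 6 and 3 for ABBV-744 50 nM against DMSO, 17 and 16 for IFNg + ABBV-744 50 nM against IFNg, 15 and 15 against ABBV-744 50 nM, 8 and 8 for the 50 nM interaction and 10 and 10 for the 500 nM interaction. The correction gave 11 for ABBV-744 500 nM against DMSO, and with the block 17 for IFNg + ABBV-744 500 nM against IFNg. WARS was then -0.40 for ABBV-744 50 nM against DMSO, -0.16 and -0.17 in the 50 nM interaction and -0.28 and -0.28 in the 500 nM one.

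For ABBV-075 against ABBV-744, WARS was -0.50 with DESeq2, -0.51 with RLE, -0.47 with library size only, -0.30 and -0.30 with the correction without and with the block, and -0.73 to -0.35 leaving out a library. All 24 libraries gave 17 members. With IFNg, WARS was 0.19 with DESeq2, 0.19 with the replicate block, 0.13 with correction and block, and 0.15 to 0.24 leaving out a library. DESeq2 gave 11 members there and 1 for IFNg against DMSO.

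Leaving out a library gave 5 to 20 members for ABBV-075 against DMSO, 4 to 11 for ABBV-744 50 nM, 3 to 19 for ABBV-075 against ABBV-744, 9 to 19 with IFNg, and 0 to 2 for the ABBV-075 interaction, with 2 without ABBV-075 replicate 1.

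Signs turned with the correction, without and with the block, for RARS with IFNg + ABBV-075 (-0.0065 and -0.0074), DARS with IFNg + ABBV-744 at 50 nM (-0.0624 and -0.0621) and 500 nM (-0.0929 and -0.0914), EEF1E1 at 500 nM (-0.16 and -0.17), and in the 50 nM interaction for CARS2 (0.0460 and 0.0436), MARS (0.0209 and 0.0213), RARS2 (-0.61 and -0.61) and LARS (-0.15 and -0.15). By the rule used, an r of deviations over 0.1 for every replicate number, the labels' numbers paired the libraries in 0 of 28 group pairs (r -0.18 to 0.34). Single numbers did have a higher r. For ABBV-075 and IFNg + ABBV-075 it was 0.30, -0.065 and 0.25, beside a mean of -0.082 for unlike numbers. The block alone called 2 members for IFNg against DMSO, WARS and KARS. Depth limits low genes such as IDO1.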
